A study of Rattus norvegicus with 44 samples.

Results

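The operated side of the cortex was compared with the opposite side in rats that went through the surgery of the stroke model without a vessel being closed. The arrays were chosen by their labels: 4 arrays of the ipsilateral (operated) area and 4 arrays of the contralateral (opposite) area, all from sham-operated rats at 24 h, out of the 44 arrays analysed here. Both sides carry the same rat number, 5 to 8, and each array holds RNA pooled from 3 rats, so that a number is called a pool below and the comparison was made within pools. All animals were adult Sprague-Dawley rats, and no genotype is given. Sham rats were anaesthetised with ketamine, diazepam and atropine, received meloxicam, an anti-inflammatory analgesic, and had a small hole drilled in the skull above the rhinal fissure, over a branch of the right middle cerebral artery that was not ligated. Sham cortex of both sides at 3 d (4 arrays a side, pools 13 to 16), and the periinfarct area and contralateral cortex of rats 24 h after the artery was permanently ligated (4 arrays each, pools 1 to 4), served for comparison. Ischemic rats had the same drugs and the same craniotomy, and per the study's methods both of their common carotid arteries were also closed for a time, so that their contralateral cortex is not intact tissue. The level of a gene in unoperated healthy rats is given from 4 arrays of the ipsilateral area.

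Neither side of a sham brain is an untreated control: the opposite cortex shares the anaesthesia, the analgesic, the blood and the time after surgery with the operated cortex, and differs from it by the craniotomy and by the side of the brain itself, which cannot be told apart here. An injury to the cortical surface is known to activate astrocytes, the support cells of the brain, which raise intermediate filament proteins such as Gfap and secrete the protease inhibitor Serpina3n and Lcn2, which binds bacterial iron carriers. Damaged tissue also releases chemokines, small proteins that draw white blood cells: the Cxcl1 and Cxcl2 proteins attract neutrophils and Ccl2 attracts monocytes. Many chemokine genes are switched on by the transcription factor NF-kappaB, and many genes of reactive astrocytes and of the acute-phase response by STAT3, which acts downstream of interleukin 6. In tissue pieces, more cells of a type and more RNA per cell cannot be told apart.

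The 250 bases before the start of 4 of the genes described below are printed because these genes had wide differences between sides in at least some pools and hold a match to the binding motif of one of these factors. Sequences were taken from RefSeq on the GRCr8 build, 5' to 3' on the gene's strand, and capitals mark matches to GGG, any 2 bases and then TTTCC (NF-kappaB) in the 3 chemokine genes and to TTC, any 3 bases and then GAA (STAT) in Serpina3n, both strands searched. The regions are chr14:17479322-17479571 (minus strand) for Cxcl1, chr14:17467256-17467505 (minus strand) for Cxcl2, chr9:91836909-91837158 (plus strand) for Ccl20 and chr6:129088142-129088391 (plus strand) for Serpina3n.
Cxcl1: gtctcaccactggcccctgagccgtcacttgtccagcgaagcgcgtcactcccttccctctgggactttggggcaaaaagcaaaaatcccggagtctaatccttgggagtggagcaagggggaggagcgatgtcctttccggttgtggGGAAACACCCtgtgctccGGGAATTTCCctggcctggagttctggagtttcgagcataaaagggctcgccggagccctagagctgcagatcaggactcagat
Cxcl2: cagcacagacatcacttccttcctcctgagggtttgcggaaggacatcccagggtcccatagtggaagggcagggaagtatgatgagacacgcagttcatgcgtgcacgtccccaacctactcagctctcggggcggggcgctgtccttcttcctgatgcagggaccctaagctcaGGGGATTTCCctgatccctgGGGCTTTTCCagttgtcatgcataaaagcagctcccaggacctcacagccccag
Ccl20: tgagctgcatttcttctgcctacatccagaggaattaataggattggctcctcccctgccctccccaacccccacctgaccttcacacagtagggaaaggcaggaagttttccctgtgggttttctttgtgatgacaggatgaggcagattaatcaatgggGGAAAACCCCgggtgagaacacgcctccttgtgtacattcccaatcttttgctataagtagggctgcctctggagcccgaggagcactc
Serpina3n: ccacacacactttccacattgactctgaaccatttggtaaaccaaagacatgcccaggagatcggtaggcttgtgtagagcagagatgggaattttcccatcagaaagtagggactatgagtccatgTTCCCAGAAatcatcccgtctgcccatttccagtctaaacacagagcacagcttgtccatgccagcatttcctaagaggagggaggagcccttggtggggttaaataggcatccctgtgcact
In Cxcl1 the matches lay 102 to 93 bases (minus strand) and 84 to 75 bases (plus strand) before the start, and in Cxcl2 74 to 65 and 54 to 45 bases before it (both on the plus strand). The match of Ccl20 lay 89 to 80 bases before the start on the minus strand, and that of Serpina3n, which reads as a match on either strand, 123 to 115 bases before it. Of the 28 cytokine and chemokine genes with a promoter in the RefSeq table, 6 held the NF-kappaB letters (21.4%), against 435 of all 33469 promoters (1.30%). The STAT letters stood in 3 of 20 reactive astrocyte genes (15.0%) and in 3 of 17 IL-6 and STAT3 response genes (17.6%), against 2566 of all promoters (7.67%). A match describes the letters only, and no binding was measured.

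Across the whole array hardly any probe separated the 2 sides of the sham cortex by the test. Of 30538 probes, 1 passed an adjusted p of 0.05 (limma with the pool as a block, Benjamini-Hochberg adjustment) and at least a 2-fold difference, which is 0.00327% of the probes, and the same probe was the only one to pass the adjusted p without a fold limit. At an unadjusted p under 0.05 there were 779 probes (2.55%), of which 289 were higher on the operated side (0.946%) and 490 lower (1.60%). So none of the differences between sides given below for a named gene passed the test, and they are values that describe these 4 pools. All levels are log2 of the quantile-normalized signal of 1 probe, and all differences are log2 operated minus opposite side. Each SE is that of the fit, whose residual spread comes from all arrays. The 4 pools named beside an SE are those of the difference. The SE can be smaller or larger than the spread between these pools would give.

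Several reactive astrocyte genes were higher on the operated side in every pool. Of the 22 genes listed, 21 were measured, 0 were called, 6 were higher on the operated side in all 4 pools, against 3.82% of all probes, and in 4 genes (Serpina3n, Gfap, Timp1 and Hspb1) the levels of the 2 sides did not overlap, against 0.210% of all probes. The median difference over the list was 0.33, beside -0.03 over all probes, with medians of 0.64, 0.86, 0.19 and -0.01 in pools 5, 6, 7 and 8. None of the 21 was lower in all 4 pools. With the slide added to the pool as a block, an alternative chosen after seeing the data, the list's median was -0.05.

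Serpina3n, a secreted serine protease inhibitor typical of reactive astrocytes, differed most. Its levels were 8.54, 6.96, 5.11 and 6.01 on the operated side of pools 5, 6, 7 and 8 and 3.17, 2.50, 3.45 and 2.67 on the opposite side. Every operated array lay above every opposite array, and the opposite side was within the range of the healthy arrays (2.49 to 3.86). The fitted difference was 3.71 ± 0.89 (SE, 4 pools), with an unadjusted limma p of 0.00044 and an adjusted p of 0.955. This value rests in part on dim spots, since the opposite arrays of pools 6 and 8 were not well above background, and there the signal ratio is a bound: the operated side was at least 15.2-fold and at least 7.30-fold higher.

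Gfap, the intermediate filament protein that defines reactive astrocytes, was at 9.67, 8.92, 8.73 and 9.12 on the operated side and 7.22, 6.72, 8.51 and 8.24 on the opposite side. The sides did not overlap, but the difference ran from 2.45 in pool 5 and 2.20 in pool 6 to 0.88 in pool 8 and 0.22 in pool 7. Part of the width came from the opposite side, where pools 5 and 6 lay below the healthy range of 7.96 to 8.51. The fitted difference was 1.44 ± 0.45 (SE, 4 pools; limma adjusted p = 1.00), and a second Gfap probe gave 1.76.

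Timp1, an inhibitor of matrix metalloproteinases, was at 12.90, 10.81, 9.86 and 9.70 on the operated side and 9.32, 8.72, 9.21 and 9.24 on the opposite side. Its difference was 3.58 in pool 5 and 0.46 in pool 8, with a fitted value of 1.70 ± 0.61 (SE, 4 pools). Lcn2 was at 7.98, 7.82, 5.38 and 6.20 against 4.60, 5.00, 4.59 and 5.42, higher on the operated side in every pool though the operated array of pool 7 lay just below the opposite array of pool 8. The fitted difference of Lcn2 was 1.94 ± 0.66 (SE, 4 pools). Hspb1, a small heat shock protein that astrocytes make after injury, had differences of 2.56, 1.39, 0.49 and 0.14. Aspg, another gene of the list, was higher in every pool by 1.20, 0.80, 0.44 and 0.50.

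Other members were higher only in some pools. Cd44, the receptor for hyaluronan, differed by 2.20 and 1.48 in pools 5 and 6 and by 0.19 and -0.02 in pools 7 and 8, and a second Cd44 probe gave a fitted difference of 0.05. Gbp2, an interferon-induced GTPase, differed by 1.38, 1.31, -0.16 and -0.12. The filament protein Vim differed by 0.77, 0.06, -0.06 and -0.26, and Nes by 0.21, -0.04, 0.28 and -0.18. Genes of resting astrocytes had a median difference of -0.01 over the list of 11, of which 3 (Gja1, Glul and S100b) were higher in all 4 pools and 1 (Gjb6) lower, a share of higher members close to that of the reactive list, and 0 were called. Glul, which makes glutamine, differed by 0.44, 0.59, 0.12 and 1.33 and the calcium-binding protein S100b by 0.96, 0.56, 0.05 and 1.82, both highest in pool 8. The gap junction protein Gja1 differed by 0.12 ± 0.13 (SE), the glutamate transporter Slc1a3 by 0.01 ± 0.17 and the water channel Aqp4 by 0.09 ± 0.17 (4 pools each).

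**Figure D1:**
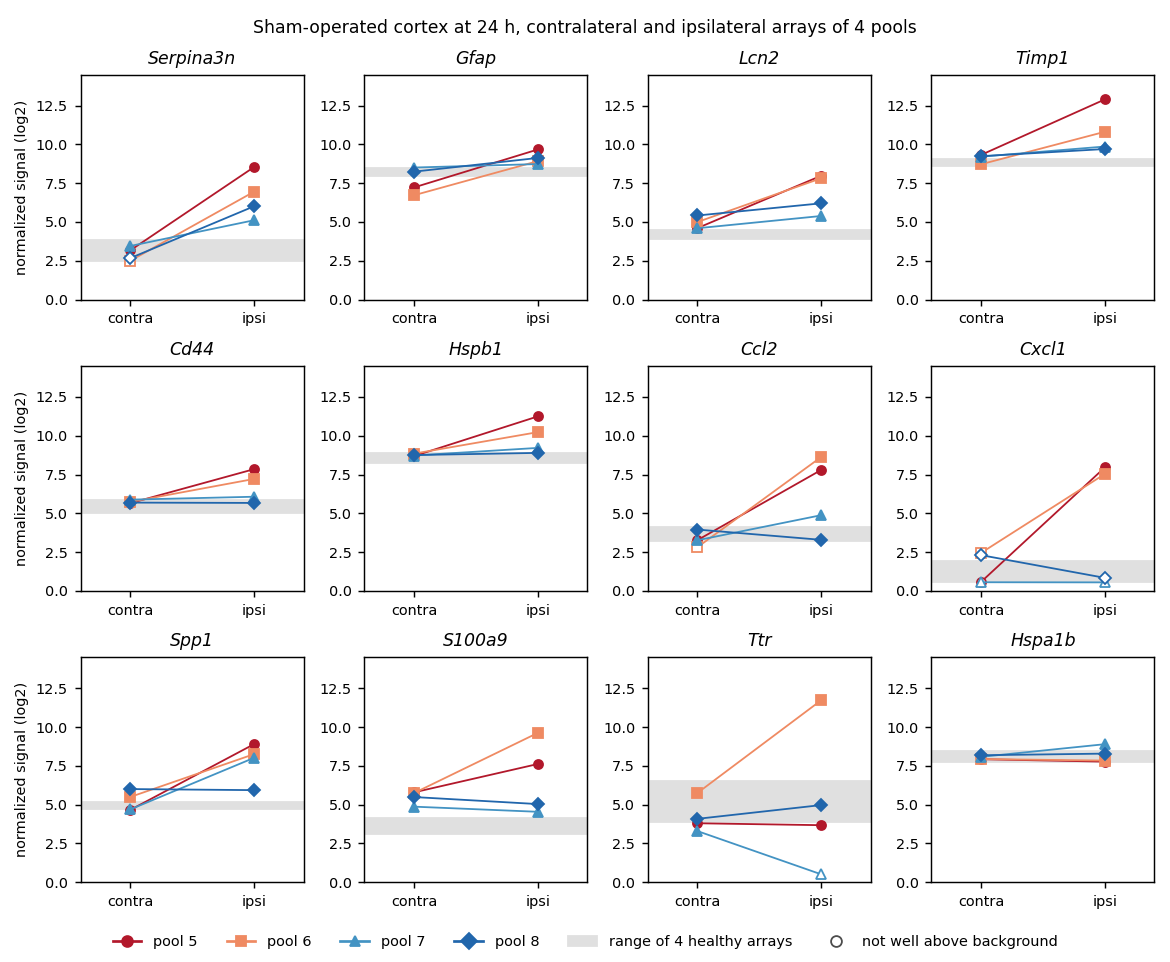
Level (log2 of the normalized signal, y axis) of 12 genes on the opposite (contra) and operated (ipsi) side of the sham cortex at 24 h, with a line joining the 2 arrays of each pool, open symbols for arrays not well above background and grey bands for the range of the 4 healthy arrays. Serpina3n, Gfap, Lcn2, Timp1 and Hspb1 lie higher on the operated side in all 4 pools, Cxcl1 leaves the background on the operated side of pools 5 and 6 alone, and Hspa1b stays level in all but pool 7.

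Several chemokines stood well above background on the operated side of pools 5 and 6 and were dim on the opposite side. Of 37 cytokine and chemokine genes, 32 were measured, 0 were called, and 1 (Cxcl2) was higher in all 4 pools, no larger a share than the 3.82% of all probes. The sides of Cxcl2 did not overlap, against 0.210% of all probes, but this is 1 gene. The list's median difference was 0.21, with medians of 0.65, 0.79, 0.19 and -0.34 in pools 5 to 8, and -0.05 with the slide as the block in place of the pool. Cxcl1, a neutrophil attractant, was at 7.96 and 7.54 on the operated side of pools 5 and 6 and at 0.55 and 0.84 on that of pools 7 and 8, while the opposite side stood at 0.57, 2.45, 0.56 and 2.31. Only the operated arrays of pools 5 and 6 were well above background, and there Cxcl1 was at least 34.7-fold and at least 22.7-fold higher than on the opposite side. Over all 4 pools the fitted difference was 2.75 ± 1.05 (SE), and with only 2 of the 4 operated arrays well above background it is a bound of at least 2.53-fold.

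Ccl20, which attracts lymphocytes and dendritic cells, had the same shape, with operated levels of 6.93, 5.03, 0.80 and 0.63 against opposite levels between 0.72 and 0.81. It was at least 17.0-fold higher in pool 5 and at least 3.98-fold higher in pool 6, and was not well above background on any other of the 8 arrays. Cxcl2, the companion of Cxcl1, was at 3.84, 5.84, 1.84 and 2.77 on the operated side and 1.76, 1.76, 1.06 and 0.84 on the opposite side. None of the opposite arrays was well above background for Cxcl2 and 3 of the operated ones were, so that the difference is at least 1.62-fold (fitted 2.22 ± 0.60 log2, SE, 4 pools; limma adjusted p = 1.00).

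Ccl2, the main monocyte attractant, was at 7.80, 8.64, 4.88 and 3.29 on the operated side and 3.27, 2.82, 3.27 and 3.95 on the opposite side. The difference was 4.53, 5.82 and 1.62 in pools 5, 6 and 7 and -0.66 in pool 8. The fitted value was 2.83 ± 1.02 (SE, 4 pools), and in pool 6 the opposite array was not well above background, which leaves at least 48.6-fold. Ccl7, a relative of Ccl2, differed by 3.01, 3.50, 0.96 and -1.16. The interferon-induced chemokine Cxcl10 differed by 2.68, 2.60, 0.35 and -1.21.

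Interleukin 1 beta (Il1b), a cytokine made by activated microglia and macrophages, was at 6.56, 7.58, 5.65 and 4.89 on the operated side and 5.02, 4.50, 4.91 and 5.29 on the opposite side. Its difference of 1.53 and 3.09 in pools 5 and 6 compares with 0.74 and -0.40 in pools 7 and 8. Il1rn, the natural antagonist of the interleukin 1 receptor, had smaller differences of 0.62, 1.33, 0.48 and -0.27. Il6 and Tnf were not well above background on any of the 8 arrays, so no side difference could be measured for these cytokines. Ccl3, a chemokine of macrophages, differed by 0.38, 1.47, 0.76 and -1.18.

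The IL-6 and STAT3 response genes included several that were higher in every pool. Of 22 genes, 21 were measured, 0 were called, 5 were higher in all 4 pools and 3 did not overlap, against 3.82% and 0.210% of all probes, with a median difference of 0.22. That median was 0.09 with the slide as the block, 0.05 with both blocks and 0.09 without pool 6. Some genes stand on this list and on that of reactive astrocytes, so the counts are not separate. Lbp, the plasma protein that binds bacterial lipopolysaccharide, was at 5.42, 3.53, 3.79 and 3.47 on the operated side and 1.01, 1.34, 1.84 and 2.79 on the opposite side. The sides did not overlap, 3 operated arrays and 0 opposite arrays were well above background, and the operated side was at least 2.25-fold higher (fitted 2.31 ± 0.67 log2, SE, 4 pools; limma adjusted p = 1.00). A2m, a broad protease inhibitor of the acute phase in rats, was at 9.90, 8.62, 7.94 and 8.20 against 7.57, 7.38, 7.78 and 7.67, again without overlap. The fitted difference of A2m was 1.07 ± 0.64 (SE, 4 pools).

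Transcription factors of these pathways were split by pool. Bcl3, a partner of NF-kappaB, differed by 1.77, 1.99, 0.69 and -0.01, and Cebpd, a factor induced in the acute phase, by 1.68, 1.45, 0.12 and 0.01. Stat3 itself differed by 0.55, 0.53, 1.63 and -0.39, where the value of pool 7 rests on an opposite array of 6.97, below the healthy range of 8.93 to 9.18. Socs3, the feedback inhibitor of STAT3 signalling, differed by 0.30, 1.61, -0.68 and 0.59.

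Of 29 extracellular matrix and proteolysis genes, 27 were measured, with 0 called, 4 higher in all 4 pools (Timp1, the collagenase Mmp13, the membrane protease Mmp14 and the thrombospondin Thbs2) and a median difference of 0.09, which was -0.12 with the slide as the block and -0.20 with both blocks. Of the 4, Mmp14 and Thbs2 had fitted differences of 0.09 ± 0.34 and 0.07 ± 0.30 (SE, 4 pools each). Spp1 (osteopontin), a matrix protein secreted by activated macrophages and microglia, was at 8.91, 8.26, 8.02 and 5.94 on the operated side and 4.67, 5.50, 4.70 and 6.01 on the opposite side. Pool 7 shared this difference, with 3.33 there beside 4.24 and 2.76 in pools 5 and 6, and -0.07 in pool 8 (fitted 2.57 ± 1.06, SE, 4 pools). Complement genes had 3 of 16 measured members higher and 1 (Cfd) lower in all 4 pools, against 3.82% and 6.90% of all probes, and a median of 0.07, which was -0.23 with the slide as the block and -0.29 with both blocks. Complement factor B (Cfb) differed by 1.53, 0.38, 0.20 and 0.11, Serping1, the inhibitor of C1, by 1.57, 0.54, 0.25 and 0.30, the protease C1s by 0.92, 0.11, 0.18 and 0.03, and C1qa by 0.03, 0.08, 0.06 and -0.19. No interferon response gene of the 22 measured was higher in all 4 pools (0 called), and their median was 0.18, with 0.83, 0.33, -0.07 and -0.36 in pools 5 to 8 and -0.04 with the slide as the block. Isg15, a ubiquitin-like protein of this response, differed by 1.21, 0.72, -0.04 and -0.34.

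The heat shock and chaperone genes were close to level as a list, with a median difference of 0.02 over 18 measured members. Of these, 1 (Hspb1) was higher in all 4 pools. Hspa1a and Hspa1b encode Hsp70, the inducible chaperone that rises with protein damage. Hspa1b was at 7.77, 7.84, 8.90 and 8.29 on the operated side and 7.93, 7.94, 8.08 and 8.19 on the opposite side, a fitted difference of 0.17 ± 0.30 (SE, 4 pools). Hspa1a differed by 0.17 ± 0.35, Hsph1 by 0.06 ± 0.20 and Hspe1 by -0.11 ± 0.12 (SE, 4 pools each). Hmox1, heme oxygenase of the oxidative stress response, differed by 0.42, 0.82, 0.47 and 0.02, and metallothionein Mt1 by 0.26, 0.26, 0.28 and 0.16, both higher in all 4 pools. Of 17 measured oxidative stress and metal genes, 3 were higher and 1 lower in all 4 pools, against 3.82% and 6.90% of all probes, and 0 were called.

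The immediate early genes, which neurons switch on with activity, had a median difference of 0.04 over 31 members. Fos differed by 0.20 ± 0.32, Arc by -0.01 ± 0.48, Egr1 by 0.15 ± 0.29 and Nr4a1 by 0.04 ± 0.32 (SE, 4 pools each). The stress-induced factor Atf3 ran from 2.21 in pool 6 and 1.10 in pool 7 to 0.59 in pool 5 and -0.71 in pool 8. The glucocorticoid-induced genes, which respond to the adrenal stress hormones, had a median of 0.00 over 12 members, and growth and trophic factors 0.01 over 29.

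**Figure D2:**
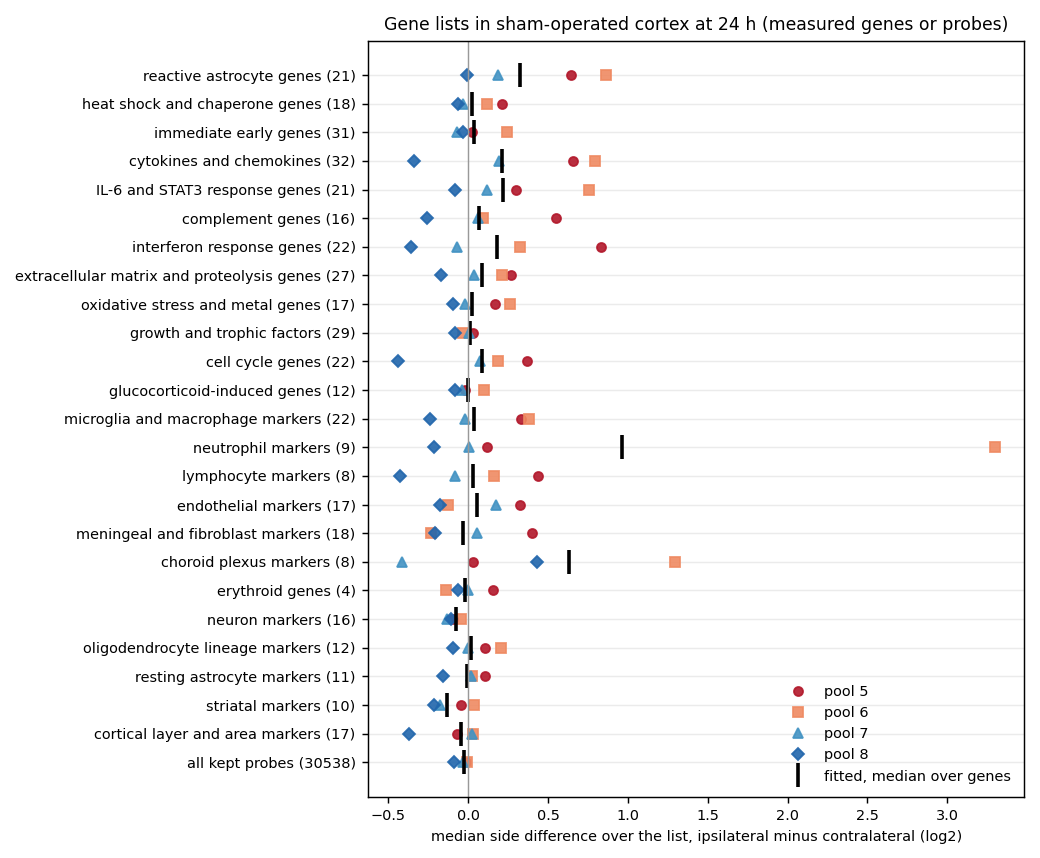
Median log2 difference (operated minus opposite side, x axis) of each gene list in each of the 4 sham pools at 24 h (symbols) and in the fit (black bars), with the number of measured genes in brackets and all probes in the bottom row. In the reactive astrocyte, cytokine and IL-6 lists, pools 5 and 6 lie above pools 7 and 8. Other lists also lie high there, such as the interferon list (0.83 in pool 5) and the choroid plexus list (1.29 in pool 6). The neutrophil list reaches 3.30 in pool 6, though only 3 of its 9 measured genes were well above background on all 8 arrays.

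Markers of cells that could enter or contaminate the tissue pieces were measured beside these genes. Of 12 neutrophil markers 9 were measured, 0 were called, and their median difference was 0.12, 3.30, 0.01 and -0.21 in pools 5 to 8. The fitted median of 0.96 was 0.17 without pool 6, 0.15 with the slide as the block and 0.10 with normexp background correction. Only 3 of the 9 were well above background on all 8 arrays. The median of 3.30 in pool 6 is the value of Csf3r. Its opposite level there was 0.73, below the lowest signal well above background on any array (1.55). The mean level of the list was 2.68 to 5.28 on the operated side and 2.65 to 3.09 on the opposite side. S100a8, a calcium-binding protein abundant in neutrophils, was at 7.61, 9.34, 4.61 and 4.51 on the operated side and 5.78, 5.47, 3.59 and 5.14 on the opposite side, and its partner S100a9 differed by 1.83, 3.88, -0.33 and -0.45. Mmp8, the neutrophil collagenase, was well above background on the operated array of pool 6 alone, where it was at least 5.00-fold higher. The granule protein Camp differed by 0.00, 0.44, 0.51 and 0.01. Several neutrophil markers were higher in pool 6 and, for S100a8, S100a9 and Fcnb (1.42), in pool 5, the pools in which the chemokines were highest, and their part in the chemokine differences was not tested.

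Microglia and macrophage markers had a median of 0.04 over 22 members, with Aif1 at 0.02 ± 0.25 and Csf1r at -0.10 ± 0.29 (SE, 4 pools each). Itgam, an integrin of myeloid cells, differed by 1.35, 0.60, 0.08 and -0.06, and Cd14, the lipopolysaccharide co-receptor, by 1.85, 1.54, 0.30 and -0.53. Lgals3, a galectin of activated macrophages, differed by 1.48, 0.83, 0.66 and 0.00. Other members went the other way: Tmem119 was lower in every fit, at -1.12 to -0.11, and Ms4a7 ran from -1.43 to 0.24 over the fits. Of the 22 members, 1 was higher and 1 lower in all 4 pools, against 3.82% and 6.90% of all probes, and 0 were called. Endothelial markers had a median of 0.06 over 17 members and erythroid genes -0.02 over 4, with beta globin (Hbb) at 0.34, -0.12, -0.06 and -0.21. Lymphocyte markers (8 measured) had a median of 0.03, and meningeal and fibroblast markers (18 measured) -0.03.

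The choroid plexus is the tissue in the ventricles that makes cerebrospinal fluid, and its transport protein Ttr can reveal a piece of it in a dissection. Ttr was at 3.68, 11.74, 0.51 and 4.98 on the operated side and 3.80, 5.76, 3.30 and 4.09 on the opposite side, so that it differed by 5.98 in pool 6. In pool 7 the operated array was not well above background for Ttr and the operated side was at least 1.12-fold lower. Of 9 choroid plexus markers 8 were measured, with a median of 0.63 and a mean level of 2.73 to 5.00 on the operated side and 3.06 to 3.33 on the opposite side. The list's medians were 0.03, 1.29, -0.41 and 0.43 in pools 5 to 8. Only 2 of the 8 were well above background on all 8 arrays, and the median was 0.06 with normexp background correction. Kcnj13, another gene of the list, differed by 0.64 in pool 6. The part of this tissue in the other differences of pool 6 was not tested.

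Neuron markers, by which the labelled cortex was checked, were close to level, with a median of -0.08 over 16 measured genes, all 16 above background on the 8 arrays. Of these, 5 were lower on the operated side in all 4 pools, against 6.90% of all probes, and 1 did not overlap, against 0.502% of all probes, and 0 were called. The median of the list was 0.13 with the slide as the block and 0.19 with both blocks. Pvalb, the calcium buffer of fast-spiking interneurons, was the one without overlap, at 12.39, 12.30, 12.40 and 12.26 on the operated side and 12.70, 12.43, 12.51 and 12.41 on the opposite side, and the other 4 were Calb2, Gad2, Neurod6 and Tubb3, with fitted differences of -0.16, -0.07, -0.27 and -0.11. The synaptic protein Snap25 differed by 0.01 ± 0.21, the vesicular glutamate transporter Slc17a7 by -0.11 ± 0.25 and Gad1, which makes GABA, by 0.02 ± 0.23 (SE, 4 pools each). Oligodendrocyte lineage markers had a median of 0.02 over 12 members, with the myelin gene Mbp at 0.25 ± 0.23 (SE, 4 pools). Striatal markers (median -0.13 over 10) and cortical layer and area markers (-0.05 over 17) had small differences of the median. Oxidative stress and metal genes (median 0.02 over 17) and cell cycle genes (0.09 over 22) complete the lists, with 0 genes called in any of the 24 lists.

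The single probe that passed the test has no gene symbol in the tables used here (Agilent probe A_44_P290976). Its levels were 0.51, 0.51, 0.50 and 0.53 on the operated side and 3.37, 4.22, 0.55 and 4.46 on the opposite side. None of the operated arrays and 3 of the opposite arrays were well above background, and pool 7 showed no difference. The fit gave -2.64 ± 0.37 (SE of the fit over all arrays; limma adjusted p = 0.0159). This SE and p rest on the residual spread of all arrays and do not describe the spread between the 4 pools. Since the operated side was not well above background, the difference is a bound of at least 1.31-fold lower. In healthy ipsilateral cortex the probe was not well above background on any of 4 arrays, and neither was it on either side of the sham cortex at 3 d. The call was lost with the slide as a block, in fits of only the compared groups or only sham arrays, under 75th percentile scaling or normexp background correction, and without pool 5, 6 or 8, and the probe is not among those of the stricter filter or the authors' table.

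By the rule for named genes, the 15 genes highest and the 15 lowest on the operated side, among those with the smallest unadjusted p that ran the same way in all 4 pools, were also read. Besides Serpina3n, Lbp, Cxcl2, Lcn2, Timp1 and Gfap, the higher genes were Ctsj, Mcm5, Kmt2a, Nfatc2ip, Olr920, Plac8, Lsp1, Bicc1 and Or52k1, none of them called. Ctsj, Mcm5 and Nfatc2ip had low opposite levels, at most 1.29, 2.26 and 2.53. The lowest signal well above background ran from 1.55 to 3.30 over the arrays. The Mcm5 difference was 2.57 in pool 6, set apart from the other pools by Dixon's test. Lsp1, an actin-binding protein of white blood cells, was at 10.73, 10.14, 9.14 and 9.02 against 9.04, 8.75, 8.94 and 8.61, a fitted difference of 0.92 ± 0.33 (SE). Plac8 was at 10.30, 8.95, 8.52 and 8.42 against 8.28, 7.60, 8.38 and 8.16, without overlap, against 0.210% of all probes. Plac8 was picked by its p and its direction in all 4 pools, which favours genes without overlap. The value of Kmt2a, a histone methyltransferase, rests on 1 array: its opposite level was 6.34 in pool 6 and 9.91 to 10.44 in the other pools, and the other 2 Kmt2a probes gave 0.04 and 0.10.

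The lower genes were Ggta1, Sh2d4b, Htr4, Zbtb26, Angel1, Igfals, Mep1b, Serpina1, Cpn1, Itga10, Mnd1, Serpinc1, Abca5, Slc46a1 and Pcca. Of these 15, only Abca5, Slc46a1 and Pcca were well above background on all 8 arrays, so that most of the fitted values of the other 12 are differences between dim spots. Pcca, a subunit of the mitochondrial propionyl-CoA carboxylase, was at 6.45, 6.50, 6.58 and 6.63 against 6.88, 6.90, 6.64 and 6.99. The folate transporter Slc46a1 differed by -0.33 ± 0.09 and the lipid transporter Abca5 by -0.48 ± 0.15 (SE, 4 pools each). Both were without overlap between the sides, against 0.502% of all probes, which the way these genes were picked favours.

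**Figure D3:**
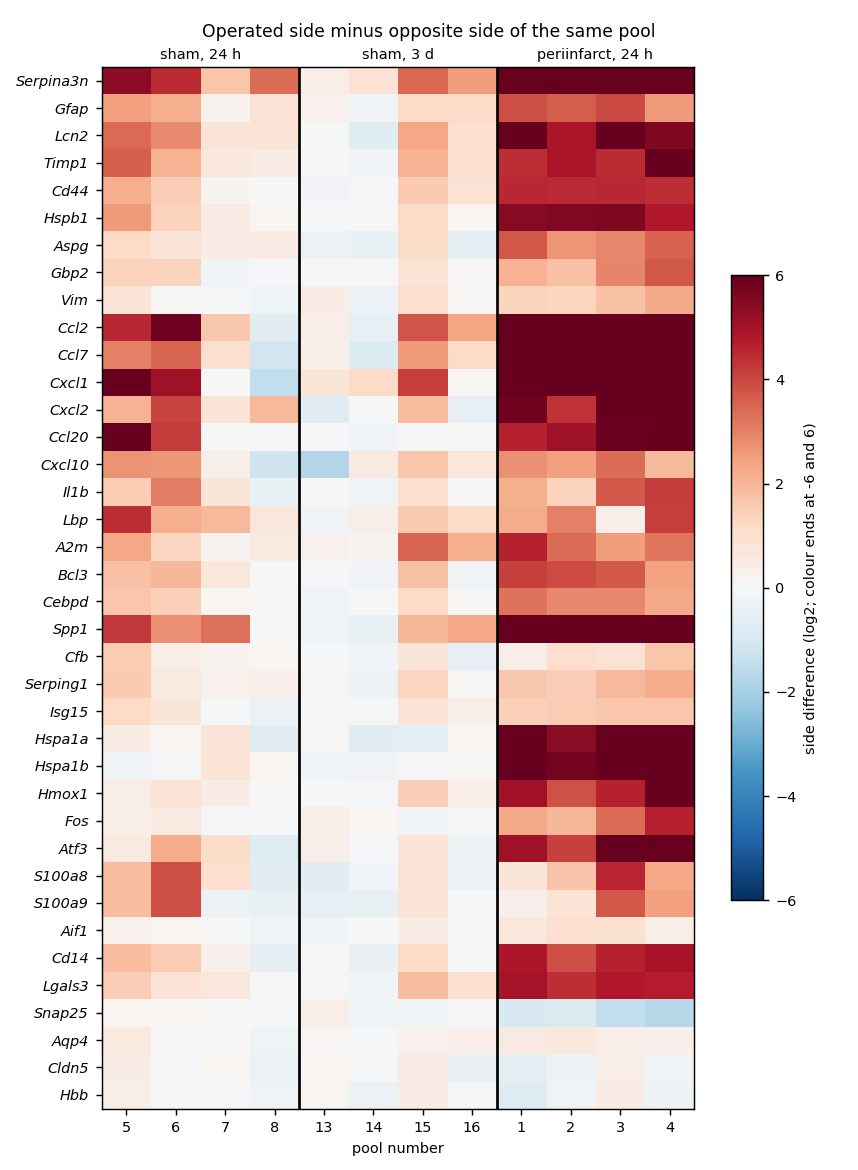
Log2 difference (operated minus opposite side, colour) of 38 genes in rows, in every sham pool at 24 h (5 to 8) and 3 d (13 to 16) and every periinfarct pool (1 to 4) in columns. Many of the injury genes stand highest in pools 5 and 6 at 24 h and in pool 15 at 3 d, while Hspa1a and Hspa1b are high in the periinfarct pools alone.

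The 4 pools did not share 1 pattern across the array. The standard deviation of the side differences over all probes was 0.61, 0.64, 0.64 and 0.86 in pools 5, 6, 7 and 8, and the correlations between pools across probes lay between -0.19 and 0.14, where probes are not independent replicates. In pool 8, 3506 probes were at least 2-fold higher and 2148 at least 2-fold lower on the operated side, against 1217 to 1485 higher and 1291 to 1553 lower in the other pools. The operated array of pool 8 had 77.7% of its spots well above background, the highest share of the 44 arrays, and its part in these counts was not tested. The 8 arrays lay on 8 different slides. An exact sign-flip test of 1 gene over 4 pairs cannot go below p = 0.125, so the single-gene p-values come from the fit over all arrays alone.

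At 3 d the 2 sides of the sham cortex differed in no probe by the adjusted limma p (0%; 436 of 30538, or 1.43%, at an unadjusted p under 0.05). Serpina3n had a fitted difference of 1.80 at that time, with 0.39, 0.89, 3.44 and 2.50 in pools 13, 14, 15 and 16, and Gfap one of 0.59. Ccl2 differed by 0.41, -0.47, 3.78 and 2.37, and A2m by 0.28, 0.15, 3.47 and 2.18. Lbp differed by -0.20, 0.34, 1.57 and 1.08. Tested directly, the side difference at 24 h differed from that at 3 d in 0 probes (0%; 442, or 1.45%, at an unadjusted p under 0.05), so a decline from 24 h to 3 d was not shown. The rats of the 2 times are different animals.

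In the periinfarct area of ischemic rats, compared with their own contralateral cortex at 24 h, 2433 probes were higher (7.97%) and 2011 lower (6.59%). This side difference exceeded that of the sham rats in 1230 probes (4.03%) and fell short of it in 1113 (3.64%) by the adjusted limma p and at least 2-fold. The 2 side differences share no array. Of the 21 reactive astrocyte genes 13 were among the higher ones, as were 13 of 18 heat shock genes, 13 of 31 immediate early genes, 13 of 32 cytokines and chemokines, with 1 lower, and 12 of 21 IL-6 and STAT3 response genes.

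The gap was wide for several stress genes whose differences between the sham sides were small. Hspa1b differed by 6.91 between periinfarct and contralateral cortex and by 0.17 between the sham sides, a difference of 6.74 ± 0.42 (SE; limma adjusted p = 1.2e-08). Hspa1a exceeded the sham value by 6.45 ± 0.49 (limma adjusted p = 1.0e-07), Hmox1 by 4.53 ± 0.74 (limma adjusted p = 0.00079) and Fos by 2.86 ± 0.46 (limma adjusted p = 0.00063). The matrix gene Has1, a hyaluronan synthase, was uneven between the sham sides, at -1.85, 0.30, -0.14 and -0.54 in pools 5 to 8. Its opposite level was highest in pool 5, at 6.39. Has1 had a fitted difference of -0.56 between the sham sides and of 5.92 in the periinfarct area.

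For Serpina3n, Gfap, S100a8 and Il1b, higher on the operated side in at least some sham pools, the gap was narrower relative to its error. Other genes high there also passed, with gaps of 3.27 for Timp1, 3.79 for Lcn2, 4.21 for Hspb1 and 5.51 for Spp1. Serpina3n, with 2 of 4 opposite sham arrays well above background, differed by 7.81 in the periinfarct area and by 3.71 between the sham sides, a fitted gap of 4.10 ± 1.25 (SE; limma adjusted p = 0.034), and Gfap by 3.51 and 1.44, a gap of 2.07 ± 0.64 (limma adjusted p = 0.035). No opposite sham array was well above background for Cxcl1, Ccl20 or Lbp, so their side differences are bounds. Fitted gaps listed further below for Cxcl1 and Ccl20 include a sham side difference that was not measured. S100a8 had a gap of 0.80 ± 0.82 (limma adjusted p = 0.55) and Il1b one of 1.61 ± 0.67 (limma adjusted p = 0.11). With errors of this size, a p above the threshold does not show that the side differences of these genes were equal.

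Over the 2433 probes that were higher in the periinfarct area, the median sham side difference was 0.24, 0.15, -0.02 and 0.05 in pools 5, 6, 7 and 8. Over the 2011 that were lower there, it was -0.03, -0.04, -0.06 and -0.36. Pools 5 and 6 thus lay higher in the probes that were higher in the ischemic border, and pool 8 lay lower in those that were lower there. Pool 8 also had the lowest median over all probes, -0.09. Its operated array shared a slide with the periinfarct array of pool 4, and 77.7% and 75.1% of their spots were well above background. The part of slide and array in the value of pool 8 was not tested. At 3 d the first of these medians was 0.02, 0.03, 0.11 and 0.10 in pools 13 to 16, and the second 0.11, -0.25, -0.05 and -0.08.

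**Figure D4:**
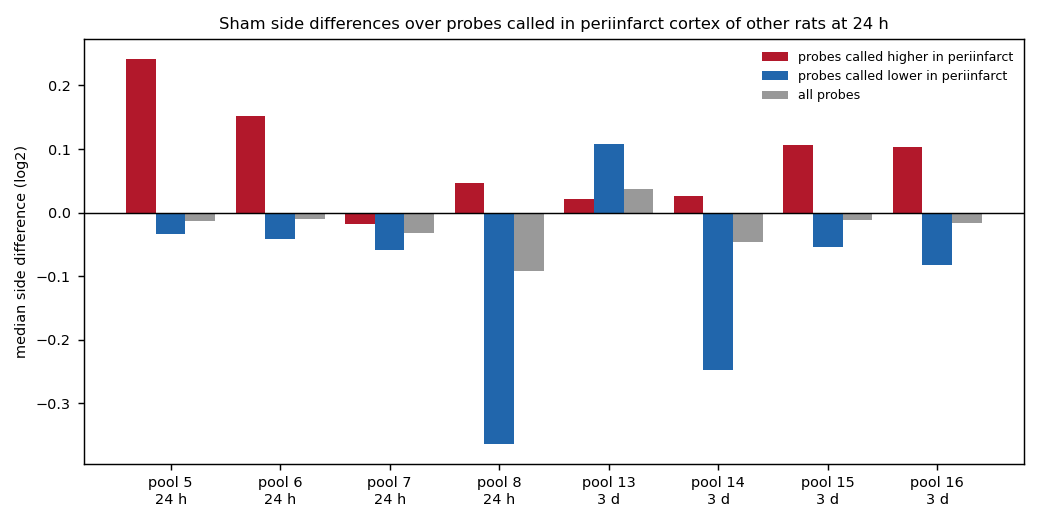
Median log2 side difference (y axis) of each sham pool at 24 h and 3 d over the probes called higher (red) or lower (blue) in the periinfarct area at 24 h and over all probes (grey). Pool 5 has the highest red bar (0.24) and pool 8 the lowest blue bar (-0.36).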

How the data were processed

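RNA of rat cortex was hybridised to 44 single-colour Agilent arrays, 4 for each of 11 groups on 11 slides, and per the study's methods each array held RNA pooled from 3 rats. The array design names the rn4 build. Per the file headers the authors scanned and quantified the spots with Agilent Feature Extraction 10.7.3.1. The deposited intensity columns hold the processed signal of each spot, already background-subtracted, and its median signal and background, which were used as they stand, and the deposited spot flags are scores of 0 or 1 that mark uneven, outlying or saturated spots and spots above background. The authors' normalized table holds log2 values of 20395 probes, of which 20375 were used, as an alternative only. The labelling protocol in the labels names a miRNA kit, whereas the methods and the array design describe messenger RNA, which was taken to be what was measured. The total count of molecules behind a spot is unknown, and the number of arrays limits the precision.

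Following the study's methods, signals were thresholded at 1, quantile normalized over all 44 arrays and taken to log2. Control spots, and uneven or outlying spots, were left out, and spots of a probe averaged. Of 41012 probes, 30538 were kept by 3 filters: above the 20th percentile and significantly above background, each in at least 75% of the arrays of a group, and a coefficient of variation over 2.5%. A symbol was given to 14974 kept probes through RefSeq or the authors' table, and a gene is its brightest probe. Of the kept probes, 107 lacked a value on some array, which the fit leaves out. No spot was saturated, and 62.5% to 77.7% of spots were well above background. No 2 arrays were copies, with a highest correlation of 0.992.

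The fit was limma 3.58.1 in R 4.3.3 on all 44 arrays with the pool as a fixed block (18 residual degrees of freedom) and Benjamini-Hochberg adjustment, and a probe was called at an adjusted p under 0.05 and at least 2-fold. Same-numbered arrays come from the same rats, per the labels. Deviations of same-numbered arrays from their group means correlated at 0.51, 0.42, 0.11 and 0.17 in pools 5 to 8, and those of different pools at a mean of -0.10. Deviations within a group sum to 0, so the second value largely follows from the first and is no independent baseline. A group not well above background on all its arrays has only a bound: the bright group's mean over the dim group's mean of, per array, the higher of the dim signal and the lowest signal well above background (1.55 to 3.30 log2 over the arrays). Alternatives were other normalizations, backgrounds, filters, pairings, slide blocks and leaving out each pool. The comparison, the 24 lists (448 symbols, 403 measured) and the tests were chosen with earlier results of these data known. Named were 15 genes a direction with the smallest unadjusted p among those running one way in all 4 pools, called list members, and defining markers; further list members were named after their values were seen, and some are not reported here. The scripts were tested on simulated data. Promoters came from RefSeq tables.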

Additional observations from a re-analysis of the deposited data

Results flagged for a closer look

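Of 310 sets of 4 values (levels of a gene on one side, or side differences of the 4 pools), 17 had 1 value set apart from the other 3 by Dixon's test, where chance sets apart about 1 in 20. In pool 5 these were the operated levels of Lbp (5.42) and Cfb (10.02), each the highest. In pool 6 they were the operated levels of Mmp8 (5.35) and Csf3r (4.02) and the side differences of Mmp8 (4.28), Csf3r (3.30), Kmt2a (3.99) and Mcm5 (2.57), each the highest. Also in pool 6 they were the opposite levels of Atf3 (4.75), Csf3r (0.73) and Kmt2a (6.34) and the side difference of Col1a1 (-0.20), each the lowest. In pool 7 it was the opposite level of Cpn1 (0.63), the lowest, and in pool 8 the highest operated level of Cpn1 (0.78) and opposite level of Tnf (1.95), all of these dim. The operated array of pool 8 stood apart by its share of spots well above background (77.7%), and that pool by the standard deviation of its side differences over all probes (0.86).

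The side difference of the periinfarct area was tested against that of the sham cortex at 24 h (limma, adjusted p under 0.05 and at least 2-fold) for 78 genes, and 38 passed, of which 36 were larger in the periinfarct area. Over all probes 4.03% were larger and 3.64% smaller there. The 78 are genes of this text, some of them named after their values were seen, so their share does not describe an unselected set. The periinfarct minus sham value is given on the log2 scale. Among the reactive astrocyte genes it was 2.07 for Gfap, 2.43 for Nes, 4.10 for Serpina3n, 3.79 for Lcn2, 3.27 for Timp1, 3.52 for Cd44, 2.47 for Aspg, 4.21 for Hspb1 and 2.02 for Gbp2. Among the chemokines and cytokines it was 5.17 for Ccl2, 5.12 for Ccl7, 4.96 for Ccl3, 3.63 for Ccl20, 4.57 for Cxcl1, 4.17 for Cxcl2, 3.22 for Il1rn and 3.32 for Il6. Among the regulators and matrix genes it was 2.41 for Bcl3, 2.03 for Cebpd, 1.18 for Stat3, 2.11 for Socs3, 5.51 for Spp1 and 6.48 for Has1. Among the stress and immediate early genes it was 6.45 for Hspa1a, 6.74 for Hspa1b, 1.65 for Hspe1, 2.33 for Hsph1, 4.53 for Hmox1, 2.03 for Mt1, 2.86 for Fos, 4.63 for Atf3 and 7.69 for Fosl1. Among the myeloid markers it was 1.76 for Itgam, 2.28 for Cd68, 3.77 for Cd14 and 4.00 for Lgals3. The values below 0 were -1.23 for Snap25 and -1.02 for the striatal marker Ppp1r1b. For Ccl7, Ccl20, Cxcl1 and Cxcl2 no opposite sham array was well above background, and for Il6 none of the 8 sham arrays was, so these 5 values include a sham side difference that was not measured. All 5 are counted among the 38 that passed and the 36 that were larger.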

How the results depend on the processing

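The count of 1 probe between the sham sides, with or without the fold limit, was 0 under 75th percentile scaling, normexp background correction, the authors' table, the stricter probe filter, fits of only the compared groups or only sham arrays, and slide as a fixed block, and 0 with pool and slide as blocks together, chosen after seeing the data; 617, 749, 288, 350, 1009, 1168, 937 and 1120 probes then had an unadjusted limma p under 0.05. It was 2 with the pool as a random replicate block (A_44_P290976 and, higher, A_44_P335724), and 0 to 4 leaving out 1 pool: 0 without pool 5 or 6, 4 without pool 7 (A_44_P290976, A_44_P173617, A_44_P457929 and Or8a1, all lower), 1 without pool 8 (A_44_P242374, a different probe). Without the replicate block, with no probe filter and with all spots kept it was 1. Between 24 h and 3 d it stayed 0 except without pool 7 (2; range 0 to 2). The count against the periinfarct area, 2343, was 776 with normexp, 326 with pool and slide blocks, 1801 without the replicate block, and 874 (without pool 4) to 2603 (without pool 2) leaving out 1 pool, with 1352 without pool 3. Its split of 1230 higher and 1113 lower was 1356 and 663 under 75th percentile scaling, which moved the median of all probes from -0.09 to 0.06, 523 and 253 with normexp and 277 and 49 with both blocks. The cause of these shifts was not tested. Differences within a slide could not be had, since the 8 sham arrays lie on 8 slides. With slide as a block Serpina3n was 2.88, Gfap 1.08, Timp1 1.02 and Ccl2 1.85, and without pool 5 Cxcl1 was 1.21. The median of the reactive astrocyte list was 0.50 under 75th percentile scaling, 0.10 with normexp, 0.15 with the slide block and -0.05 with both blocks. Of the 175 named results, 44 changed sign with the slide block and 53 with both blocks, none of them called; Serpina3n, Gfap, Lcn2, Timp1, Cxcl2, Lbp, Ccl2 and Cxcl1 stayed higher wherever run, with a lowest adjusted limma p of 0.118 for Serpina3n. Dim spots limit Cxcl1, Ccl20, Cxcl2, Lbp and most lower genes to bounds. The values of Ctsj, Mcm5 and Nfatc2ip also rest on low opposite signals.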
